A study of Mus musculus with 7 samples.

Results

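Pericentral hepatocytes are the liver cells that surround the central vein, and their gene programme depends on Wnt signals from the endothelium of that vein. Wnt ligands, strengthened by R-spondins bound to Lgr receptors, keep β-catenin (encoded by *Ctnnb1*) from being degraded, and β-catenin then acts with TCF/LEF factors on genes such as *Glul*. The ubiquitin ligases Rnf43 and Znrf3 remove Wnt receptors from the cell surface and are themselves Wnt targets, which forms a feedback loop. The genes described here are 10 listed by name for this programme outside the cytochrome P450 family. They are the metabolic genes *Glul*, *Oat* and *Rgn*, the secreted factor *Lect2*, the feedback genes *Axin2*, *Lgr5*, *Rnf43* and *Znrf3*, the transcription factor *Tbx3*, and *Ctnnb1*. Of the 10, 8 were found by symbol in the table of 14819 rows, and all 8 passed the filter on low counts, as did 14779 genes in all. *Axin2* and *Lgr5* were not analysed here.

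The RNA came from primary hepatocytes of male mice, isolated by collagenase perfusion of the liver and kept overnight in William's E medium with serum, without any treatment. WT mice (n = 4) were compared with WDR6-WKO mice (n = 3), in which an exon of *Wdr6* was deleted in the whole body with CRISPR–Cas9, so every cell type of the donor carried the deletion, not hepatocytes alone. The age of the donors is not given in the sources used here. Each library was described as an independent experiment, and p-values set the difference between genotypes against the spread between these libraries.

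The 7 libraries held 17816913 to 23668940 counted reads, and levels are CPM, read counts divided by the TMM-scaled library size. Means carry ± the s.d. over the libraries of a genotype, with n = 4 for WT and n = 3 for WDR6-WKO. *Wdr6*, the targeted gene, averaged 44.0 ± 4.03 CPM in WT libraries against 2.38 ± 0.179 CPM in the knockout. The hepatocyte marker *Alb* was counted in every library, at 6087 CPM or more. Library WDR6-WKO replicate 3 stood apart from the other knockout libraries, with a chi-square per gene of 14.3 and 15.9 against them, compared with 5.14 between replicates 1 and 2. Leaving it out raised the number of genes with an adjusted p under 0.05 from 1897 to 4233. The number of listed pericentral genes called lower was 6 with it and 6 without it, and their median log2 fold change was -0.35 and -0.34.

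*Glul*, *Oat* and *Lect2*, which were all lower in WDR6-WKO hepatocytes, each have 1 promoter window in the RefSeq table of GRCm38.p6, reaching from 250 bases before the transcript start to 50 after it. The windows are printed in the direction of transcription, with capitals at the words searched for on both strands. The *Glul* window is chr1:153899679-153899978 on the plus strand, that of *Oat* chr7:132576349-132576648 on the minus strand and that of *Lect2* chr13:56548489-56548788 on the minus strand.
Glul: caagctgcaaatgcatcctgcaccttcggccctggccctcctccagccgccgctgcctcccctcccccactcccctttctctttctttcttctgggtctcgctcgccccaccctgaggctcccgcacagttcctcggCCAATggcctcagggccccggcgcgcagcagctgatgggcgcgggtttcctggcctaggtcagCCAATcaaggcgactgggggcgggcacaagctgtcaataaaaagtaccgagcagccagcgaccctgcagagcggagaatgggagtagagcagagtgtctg
Oat: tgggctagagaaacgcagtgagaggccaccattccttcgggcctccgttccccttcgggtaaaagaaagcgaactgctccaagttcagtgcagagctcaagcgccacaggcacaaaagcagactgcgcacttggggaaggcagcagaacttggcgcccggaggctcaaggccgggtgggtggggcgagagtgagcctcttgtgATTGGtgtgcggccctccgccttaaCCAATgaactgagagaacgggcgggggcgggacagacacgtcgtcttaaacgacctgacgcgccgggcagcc
Lect2: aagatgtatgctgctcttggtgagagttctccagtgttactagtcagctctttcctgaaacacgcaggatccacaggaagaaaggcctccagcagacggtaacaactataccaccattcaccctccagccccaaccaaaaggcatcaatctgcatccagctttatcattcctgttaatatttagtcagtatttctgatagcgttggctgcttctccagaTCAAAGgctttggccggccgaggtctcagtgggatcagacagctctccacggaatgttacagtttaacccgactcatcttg
The words searched for were the TCF/LEF core, CTTTGA or CTTTGT, and the CCAAT box, CCAAT, and no matches of the 2 motifs overlapped. The *Lect2* window held a TCF/LEF word, read as TCAAAG on the printed strand, 31 bases before the start. The windows of *Glul* and *Oat* held none, and each held 2 CCAAT boxes. Those of *Glul* began 113 and 50 bases before the start, and those of *Oat* began 47 bases before it, as ATTGG, and 22 bases before it. Windows were available for 6 of the 10 genes, also counting *Ctnnb1*, *Rnf43* and *Axin2*, and 1 of the 6 held a TCF/LEF word. Of the 10569 genes tested that have a window, 28.2% held one. CCAAT was present for 4 of the 6 and for 42.8% of those 10569 genes. A missing word says only that these letters are not in the window.

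Of the 8 genes tested, 6 were lower in the knockout hepatocytes and 0 were higher, at an adjusted p under 0.05 by the quasi-likelihood test of edgeR (Benjamini-Hochberg adjustment over all genes). Over all genes tested, 6.18% were called lower and 6.65% higher. Without WDR6-WKO replicate 2, 4 of the 8 were called lower. No gene of the 8 was higher at an unadjusted p under 0.05 either, and DESeq2 and limma-voom also called 0 higher. The median log2 fold change of the 8 was -0.35, beside 0.01 over all genes tested. In each library, the median log2 level of the 8 genes relative to the WT mean was 0.04, 0.01, -0.07 and -0.01 for the WT libraries in order of replicate number, and -0.40, -0.28 and -0.34 for those of WDR6-WKO. By the thresholds for differentially expressed genes (DEGs) that the study used, a log2 fold change of 0.35 or more in either direction with an unadjusted P under 0.05, *Glul*, *Lect2*, *Rnf43* and *Tbx3* were lower DEGs, which 3.94% of all genes tested were. The CPM ranges of the genotypes did not overlap for 6 of the 8 genes, and for 23.5% of all genes tested. In bulk RNA of this kind, fewer pericentral cells and less RNA per cell cannot be told apart.

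**Figure D1:**
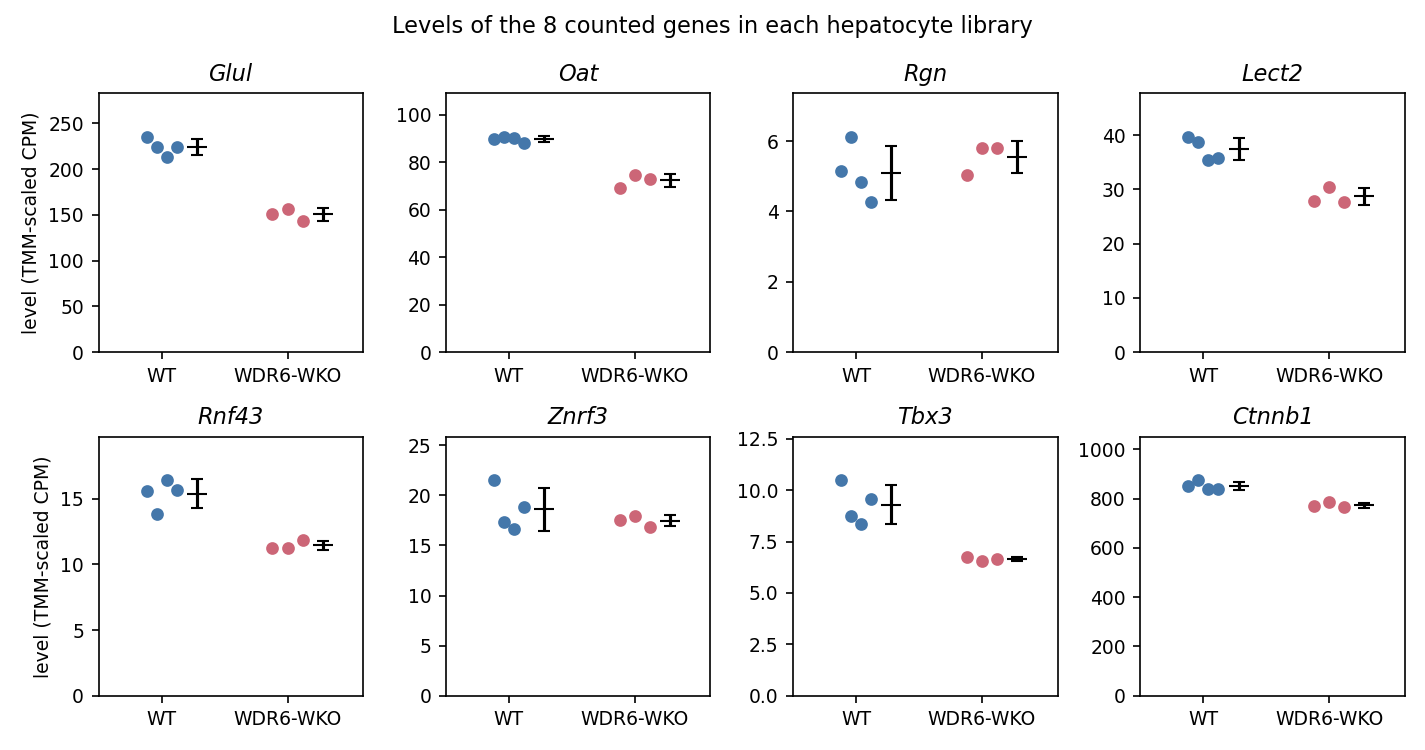
TMM-scaled CPM of the 8 genes in the 4 WT (blue) and 3 WDR6-WKO (red) libraries, one point per library, with bars for the mean and s.d. and axes that start at 0. The red points lie below every blue point for *Glul*, *Oat*, *Lect2*, *Rnf43*, *Tbx3* and *Ctnnb1*, and among the blue points for *Rgn* and *Znrf3*.

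*Glul* encodes glutamine synthetase, which captures ammonia in the last rows of hepatocytes before the central vein. Its levels were 236, 225, 214 and 224 CPM in the WT libraries, by replicate number, and 151, 157 and 143 CPM in the WDR6-WKO libraries. The ranges were far apart, and every knockout library lay below every WT library. The mean fell from 224 ± 8.93 CPM to 150.5 ± 6.89 CPM, which was 67.0% of the WT level, with a log2 fold change of -0.58 (s.e. 0.05, adjusted p = 2.37e-06). Only 2.55% of all genes tested had a fold change as low or lower, and *Glul* had the lowest of the 8. *Glul* lies at chr1:153899944-153909723 on the plus strand (GRCm38, GENCODE vM21). Of its 50-base sequences, 15.0% also occur in other genes, mainly the pseudogene *Glns-ps1*, so the counts may include or have lost such reads.

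*Oat* encodes ornithine aminotransferase, a mitochondrial enzyme that turns ornithine into a precursor of glutamate and proline and shares the pericentral zone with *Glul*. It was counted at 89.6, 90.7, 90.2 and 88.1 CPM in WT and at 69.1, 74.8 and 72.9 CPM in WDR6-WKO. The WT libraries lay close together and the knockout libraries all lay below them. The mean was 89.6 ± 1.15 CPM in WT and 72.2 ± 2.88 CPM in WDR6-WKO, a log2 fold change of -0.31 (s.e. 0.05, adjusted p = 0.000988). *Oat* lies at chr7:132557478-132576398 on the minus strand and shares none of its 50-base sequences with other genes.

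*Lect2* encodes leukocyte cell-derived chemotaxin 2, a protein that hepatocytes secrete into the blood and a known target of β-catenin in the liver. Its WT levels were 39.7, 38.6, 35.5 and 35.8 CPM and its WDR6-WKO levels 27.9, 30.5 and 27.7 CPM. All 3 knockout libraries lay below the lowest WT library. The knockout mean was 76.7% of the WT mean, with 37.4 ± 2.09 CPM against 28.7 ± 1.54 CPM and a log2 fold change of -0.38 (s.e. 0.07, adjusted p = 0.00208). *Lect2* lies at chr13:56542464-56548502 on the minus strand, with no shared 50-base sequences.

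*Rgn* encodes regucalcin, a calcium-binding lactonase in the pathway of ascorbate synthesis. It was counted at 5.14, 6.13, 4.84 and 4.27 CPM in WT and at 5.03, 5.81 and 5.81 CPM in WDR6-WKO, from 85 to 123 reads per library. The ranges overlapped. The log2 fold change was 0.12 with a 95% interval of -0.19 to 0.43 (adjusted p = 0.645), so a decrease of the size seen for *Glul* lay outside the interval and a moderate increase lay inside it. *Rgn*, at chrX:20549787-20562089 on the plus strand, had the only positive fold change among the 8 genes.

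Among the feedback genes, *Rnf43* was lower in WDR6-WKO hepatocytes, whereas *Znrf3*, which encodes the related ligase, did not pass the test. *Rnf43* was counted at 15.6, 13.9, 16.4 and 15.7 CPM in WT and at 11.2, 11.3 and 11.8 CPM in WDR6-WKO. The ranges did not overlap, and the mean was 15.4 ± 1.08 CPM in WT and 11.5 ± 0.339 CPM in WDR6-WKO, a log2 fold change of -0.43 (s.e. 0.09, adjusted p = 0.00665). *Znrf3* was counted at 21.5, 17.3, 16.6 and 18.9 CPM in WT and at 17.6, 18.0 and 16.9 CPM in WDR6-WKO. Its knockout libraries lay within the WT range, and its log2 fold change was -0.09 (95% interval -0.29 to 0.11, adjusted p = 0.585). The difference between the responses of the pair was tested through the ratio of *Rnf43* to *Znrf3* CPM in each library. The ratio was 0.724, 0.801, 0.987 and 0.832 in WT and 0.638, 0.629 and 0.702 in WDR6-WKO. All 3 knockout ratios lay below the lowest WT ratio, yet the 2-sided exact permutation test of the mean log2 ratio gave p = 0.0571. The smallest value that 4 against 3 libraries allow is 0.0286. A different response of the ligases was thus not shown. The genes lie at chr11:87662722-87735539 on the plus strand and at chr11:5276324-5444847 on the minus strand.

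*Tbx3* encodes a T-box transcription factor that acts downstream of β-catenin in hepatocytes. Its levels were 10.5, 8.75, 8.35 and 9.59 CPM in WT and 6.73, 6.57 and 6.65 CPM in WDR6-WKO. The knockout libraries, with 162, 139 and 119 reads, were nearly equal in CPM and lay below all WT libraries. At such counts, the closeness of 3 values does not show a low spread. The mean was 9.29 ± 0.949 CPM in WT and 6.65 ± 0.0820 CPM in WDR6-WKO, a log2 fold change of -0.48 (s.e. 0.12, adjusted p = 0.0136). Without WDR6-WKO replicate 2 the adjusted p of *Tbx3* was 0.0532, with a log2 fold change of -0.47. *Tbx3* lies at chr5:119670669-119684724 on the plus strand and shares 115 exon bases with *Tbx3os1* on the other strand.

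*Ctnnb1*, the gene of the signal transducer itself, had a small difference. It was counted at 852, 875, 841 and 841 CPM in WT and at 769, 786 and 767 CPM in WDR6-WKO. The ranges did not overlap, and the knockout mean was 90.8% of the WT mean, with 852 ± 16.3 CPM against 774 ± 10.2 CPM. The log2 fold change was -0.14 (s.e. 0.04, adjusted p = 0.0410), and the call was lost in 8 of 14 alternatives, with adjusted p of up to 0.133. With library sizes alone it was -0.11 (adjusted p = 0.0886), and with the replicate block -0.15 (adjusted p = 0.0724). It was also lost when any single library other than WDR6-WKO replicate 3 was left out, with log2 fold changes of -0.15 to -0.13. *Ctnnb1* lies at chr9:120929216-120960507 on the plus strand and shares 759 exon bases with *Ulk4* on the opposite strand. The sources used here do not state whether reads were counted by strand.

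**Figure D2:**
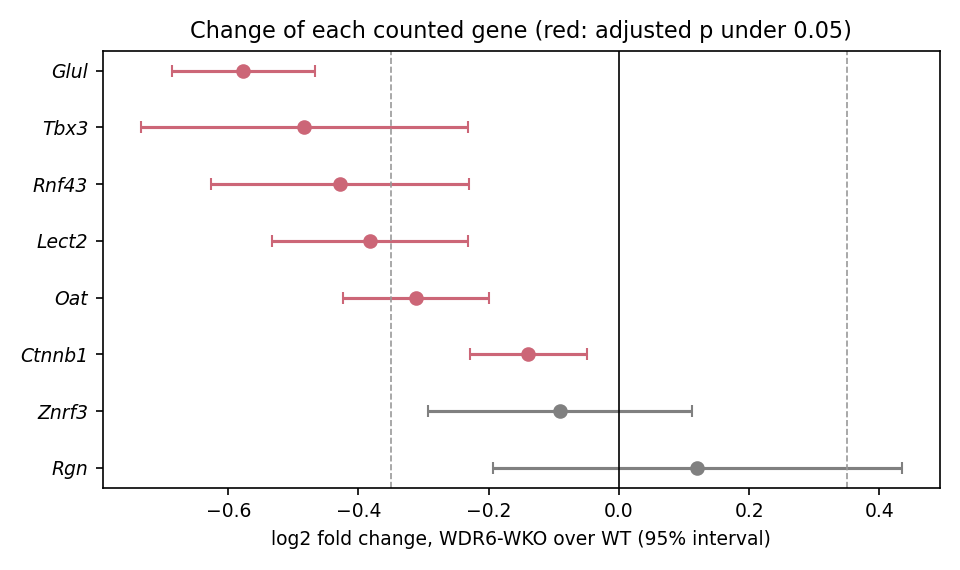
Log2 fold change of WDR6-WKO over WT for the 8 genes, with the 95% interval from edgeR's quasi-likelihood fit, and dashed lines at the DEG threshold of 0.35 in either direction. The points run from -0.58 for *Glul* to 0.12 for *Rgn*, and the intervals of *Znrf3* and *Rgn* include 0.

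Levels of different genes were compared per length, as CPM per kilobase of exon. In WT hepatocytes *Ctnnb1* was highest at 235 ± 4.50 CPM per kilobase (s.d., n = 4), followed by *Glul* at 80.4 ± 3.20. *Oat* at 41.7 ± 0.536 and *Lect2* at 40.7 ± 2.27 did not differ beyond their spread. *Rnf43* at 3.39 ± 0.239 and *Rgn* at 3.17 ± 0.484 also lay within their spread of each other, above *Znrf3* at 2.36 ± 0.274 and *Tbx3* at 1.79 ± 0.182. The order in WDR6-WKO was the same except that *Rgn*, at 3.45 ± 0.281, stood above *Rnf43*, at 2.52 ± 0.0747 (s.d., n = 3).

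The other genes of Wnt signalling did not move one way. Of 96 listed genes, 64 were tested, of which 3 were called higher and 6 lower, and 32 had a positive and 32 a negative fold change, with a median log2 fold change of 0.00. Over all genes tested, as given above, 6.65% were called higher and 6.18% lower. Without WDR6-WKO replicate 3 the number of Wnt genes called higher was 7, and without WT replicate 3, WT replicate 4 or WDR6-WKO replicate 2 the number called lower was 2. Among the ligands and the factors for their release, 9 were tested and 1 passed. *Wls*, which carries Wnt proteins to the cell surface, rose from 18.8 ± 1.32 CPM to 22.8 ± 1.54 CPM, with an adjusted p of 0.0389. *Rspo3*, the R-spondin of the central vein endothelium, was at 6.22 ± 0.505 CPM in WT and 7.47 ± 0.982 CPM in WDR6-WKO (adjusted p = 0.207), and *Wnt4* at 11.5 ± 1.67 and 8.83 ± 0.864 CPM (adjusted p = 0.0606). The other ligands in the table, *Wnt2b*, *Wnt5a*, *Wnt5b*, *Wnt7a* and *Wnt9a*, lay at means of 0.463 to 4.21 CPM in WT and did not pass. *Wnt2* and *Wnt9b*, the Wnt genes best known from the central vein, were not analysed here.

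Of 13 receptor genes tested, 1 passed. For this and the next groups, the shares over all genes tested were 6.65% called higher and 6.18% called lower. *Lgr4*, a receptor of R-spondins, fell to 85.3% of WT, from 58.8 ± 1.13 CPM to 50.2 ± 5.83 CPM, with an adjusted p of 0.0445. Of 17 genes of the β-catenin destruction complex and of the Dishevelled proteins, *Tnks2*, a tankyrase that marks axin for degradation, was lower, with a log2 fold change of -0.20 (adjusted p = 0.0343). Of 13 nuclear factors, 4 were lower. They are the co-repressors *Tle1* (log2 fold change -0.36, adjusted p = 0.000475) and *Tle3* (-0.28, adjusted p = 0.0256), the β-catenin cofactor *Bcl9l* (-0.27, adjusted p = 0.0283) and *Jup* (-0.22, adjusted p = 0.0119), which encodes γ-catenin. Of 9 inhibitor genes, the smallest adjusted p was 0.228, for *Nkd1*, with a log2 fold change of 0.46.

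Of 3 Wnt targets that many tissues share, 2 were higher in WDR6-WKO hepatocytes, beside 6.65% of all genes tested. *Ccnd1*, which encodes cyclin D1, rose from 117 ± 7.96 CPM to 171 ± 8.65 CPM, with a log2 fold change of 0.54 (adjusted p = 1.79e-05). *Myc*, a growth regulator, rose from 174 ± 8.84 to 215 ± 11.3 CPM, with a log2 fold change of 0.30 (adjusted p = 0.00156). *Tnfrsf19*, the other general target tested, was at 1.26 CPM in WT and 0.668 CPM in WDR6-WKO and did not pass (adjusted p = 0.0915). Both *Ccnd1* and *Myc* also respond to many signals other than Wnt.

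**Figure D3:**
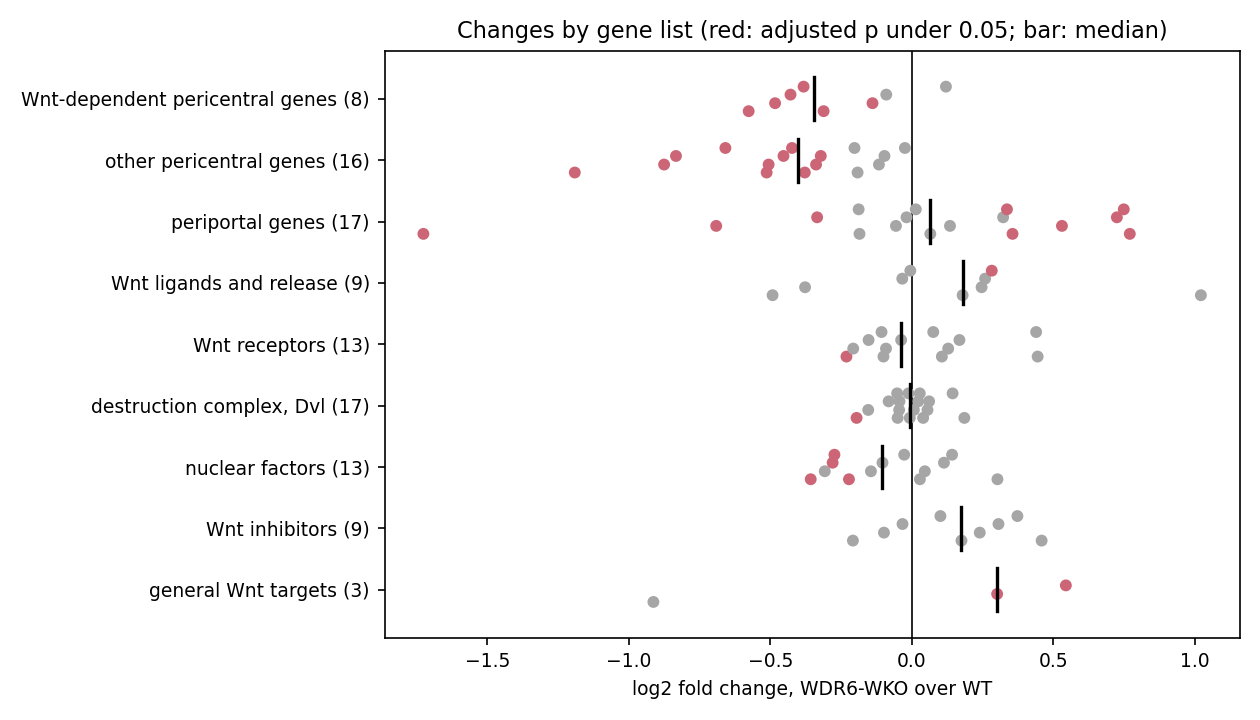
Log2 fold change of WDR6-WKO over WT for each tested gene of the pericentral, periportal and Wnt lists, one point per gene, red where the adjusted p was under 0.05, with a black bar at the list's median and the number of genes tested in brackets. The medians are -0.35 for the 8 genes described here, -0.40 for other pericentral genes and 0.07 for periportal genes, and the Wnt lists lie on both sides of 0.

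Most other pericentral genes tested were also lower. Of 18 listed, P450 genes included, 16 were tested and all 16 had a negative fold change, with a median log2 fold change of -0.40. Of the 16, 11 were called lower, beside 6.18% of all genes tested. This list, like the others here, was chosen with earlier results of these data known. *Cyp2a5* fell from 28.3 ± 2.55 CPM to 12.4 ± 1.42 CPM, a log2 fold change of -1.19 (adjusted p = 1.12e-06). Next in order of p were the aryl hydrocarbon receptor gene *Ahr* (log2 fold change -0.51), the tight junction gene *Cldn2* (-0.32), the carbonic anhydrase gene *Car3* (-0.83) and *Gulo* (-0.51), whose product acts after regucalcin in ascorbate synthesis. *Gstm3* (-0.66) and *Cyp1a2* (-0.45) also passed. The 5 that did not pass, *Cyp27a1*, *Slc1a2*, *Avpr1a*, *Cyp2c29* and *Rhbg*, had log2 fold changes of -0.20 to -0.02. Without WT replicate 2 the number called lower was 7, and without WDR6-WKO replicate 2 it was 5.

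Periportal genes, which mark hepatocytes around the portal vein, changed in both directions. Of 17 tested, 6 were higher and 3 lower, beside 6.65% and 6.18% of all genes tested. The median log2 fold change of the 17 was 0.07. *Arg1*, the last enzyme of the urea cycle, rose from 27.4 ± 1.39 CPM to 46.8 ± 4.94 CPM. *Cyp2f2*, *Apoa4* and *Aldh1b1* rose with log2 fold changes of 0.75, 0.72 and 0.53, and *Ctsc* and *Cdh1* with 0.36 and 0.34. *Pck1*, *Cps1* and *Fbp1*, of gluconeogenesis and the urea cycle, fell with log2 fold changes of -1.73, -0.69 and -0.33. *Pck1* was low in these cells, at 1.47 ± 0.586 CPM in WT.

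Some markers of cell types were also called at an adjusted p under 0.05. Over all genes tested, 6.65% were called higher and 6.18% lower. Of 9 hepatocyte markers tested, 8 had a negative fold change, and the median log2 fold change of the 9 was -0.27. Of the 9, 5 were called lower, led by *Cps1*, which is also on the periportal list, *Fgb*, *Hnf4a* and *Apoa1*. The summed level of the 9 was 15694 to 18681 CPM in WT and 14148 to 16186 CPM in WDR6-WKO, so the ranges overlapped. *Alb* and *Apob*, the most abundant of the 9 at WT means of 7366 and 5845 CPM, did not pass. Of 10 Kupffer cell markers 2, *C1qc* and *C1qb*, were higher, and the list's sum was 737 to 808 CPM in WT and 824 to 1029 CPM in WDR6-WKO. Among the 10, 9 had a positive and 1 a negative fold change, with a median log2 fold change of 0.23. Of 7 cholangiocyte markers 2, *Spp1* and *Sox9*, were higher, with sums of 3286 to 3589 CPM and 3913 to 4514 CPM, so for these 2 lists the ranges did not overlap. Among the 7 cholangiocyte markers, 3 had a positive and 4 a negative fold change. Of 9 stellate cell markers *Dcn* was higher, with sums of 530.4 to 589 CPM and 569 to 616 CPM. Of 9 markers of sinusoidal endothelium *Tek* was lower, with sums of 232 to 264 CPM and 210.3 to 251 CPM. No marker tested was at 0 in any library. Of 16 genes that rise in cultured hepatocytes, *Acta2*, *Lgals3* and *Sox9* were higher and *Krt18* and *Krt8* lower. The list was balanced, with 8 positive and 8 negative fold changes and a median log2 fold change of 0.00. Its sums were 17892 to 18546 CPM in WT and 15384 to 17347 CPM in WDR6-WKO, ranges that did not overlap, and the 2 keratins are among its most abundant genes, with means that fell from 5938 to 4886 CPM for *Krt8* and from 4272 to 3565 CPM for *Krt18*. The part of these cells and of the culture in the lower pericentral levels was not tested.

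Glutamine and ornithine metabolism connects *Glul* and *Oat* to several of these genes. *Glud1*, which encodes glutamate dehydrogenase, fell with *Glul*, from 1504 ± 26.3 CPM to 1025 ± 43.3 CPM, a log2 fold change of -0.55 (adjusted p = 1.04e-06). *Slc38a3*, a glutamine transporter of the pericentral zone, fell to 79.6% of WT (adjusted p = 0.000351). *Aldh18a1*, whose product makes from glutamate the same intermediate that Oat makes from ornithine, rose from 33.8 ± 0.533 CPM to 71.9 ± 10.6 CPM, a log2 fold change of 1.09 (adjusted p = 7.81e-07). *Gls2*, the periportal glutaminase that works opposite to *Glul*, was at 19.3 ± 0.956 CPM in WT and 20.2 ± 0.711 CPM in WDR6-WKO and did not pass (adjusted p = 0.639). Of 23 genes tested in this list, which overlaps the periportal list, 5 were higher and 4 lower. The shares over all genes tested were 6.65% and 6.18%. The median log2 fold change of the 23 was 0.03.

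**Figure D4:**
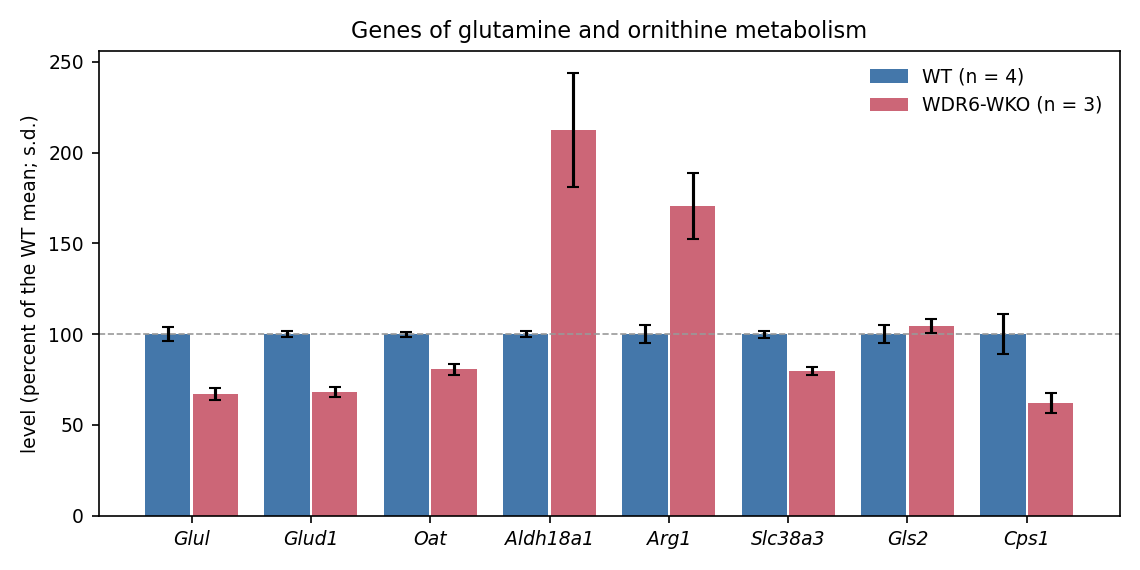
Mean level of 8 genes of glutamine and ornithine metabolism as percent of the WT mean, with s.d., in WT (blue, n = 4) and WDR6-WKO (red, n = 3). *Glul*, *Glud1*, *Oat*, *Slc38a3* and *Cps1* lie below the dashed line at the WT mean, *Aldh18a1* at 213% and *Arg1* at 171% lie above it, and *Gls2* lies at 105%.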

How the data were processed

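RNA-seq counts of 7 hepatocyte libraries were analysed. The authors aligned reads to the mouse genome (mm10, the same build as GRCm38) with Bowtie2 2.2.3, per the labels, and deposited raw read counts per gene symbol, 1 column per library, with no row total under 50. The counting tool, its annotation and its use of strand are not given in the sources used here.

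These counts were scaled to TMM-scaled CPM and tested in edgeR 4.0.16, under R 4.3.3 (filterByExpr, robust quasi-likelihood test, genotype as the only term, Benjamini-Hochberg adjustment over 14779 genes). Standard errors were derived from the fold change and the F statistic. The biological coefficient of variation was 7.40%. Spearman's rho within a genotype was 0.992 to 0.996, and every pair within a genotype differed beyond sampling noise. Exact permutation tests enumerated all 35 arrangements. On simulated data for this comparison, 169 of 200 genes with 2-fold changes were recovered among 14696 tested, with 14 false calls.

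The genes and lists were chosen with earlier results of these data known. Named were the 8 genes, at most 8 passing genes per list and direction, the ligands in the table, up to 4 passing markers per list and *Wdr6*; further names were added after their values were seen, and 1 named gene is not reported here. *Tle5* was looked up as *Aes*. Alternatives were DESeq2 1.42.0, limma-voom (limma 3.58.1), median-of-ratios factors, unscaled library sizes, testing every row, a minimum of 10 counts per library, a replicate block, and each library left out. Positions came from GENCODE vM21 and promoter windows from RefSeq.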

Additional observations from a re-analysis of the deposited data

How the results depend on the processing

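Across 14 alternatives, *Glul*, *Oat*, *Lect2* and *Rnf43* stayed lower with an adjusted p under 0.05 in all 14, *Tbx3* in 13 and *Ctnnb1* in 6, and *Rgn* and *Znrf3* passed in 0. No fold change of the 8 genes changed sign. The number of the 8 called lower was 4 to 6 when each library was left out in turn, with 4 without WDR6-WKO replicate 2, and 0 were called higher under any alternative. With one library left out, Wnt pathway genes called lower numbered 2 to 9 (2 without WT replicate 3, WT replicate 4 or WDR6-WKO replicate 2), those called higher 2 to 7 (7 without WDR6-WKO replicate 3), and other pericentral genes called lower 5 to 11. Over all genes, 1032 to 4233 were called, against 1897 with all libraries (1032 without WDR6-WKO replicate 2). Library sizes alone moved the split of all calls from 983 higher and 914 lower to 1212 and 696, and the median of all genes to 0.03. The replicate block called 1762 genes and 5 of the 8 lower, without *Ctnnb1*. Deviations of same-numbered libraries correlated at 0.0396, 0.0202 and 0.0379, and 4 of 6 libraries matched best with their own number. These values do not decide whether the libraries were paired. The sources used here do not say that the numbers mark a shared day or litter, and they were taken as names only. The cause of these changes was not tested. At 85 to 123 reads per library, the interval of *Rgn* is wide.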

Other observations

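Further genes of the glutamine and ornithine list also changed in WDR6-WKO hepatocytes, and they are already included in the counts given for it above. *Asns*, which encodes asparagine synthetase, a user of glutamine, rose from 38.8 ± 2.56 CPM to 108 ± 23.3 CPM, a log2 fold change of 1.48 (adjusted p = 0.000265). *Got1*, the cytosolic aspartate aminotransferase gene, rose with a log2 fold change of 0.38 (adjusted p = 0.000127). *Odc1*, whose product turns ornithine into putrescine, rose from 439 ± 10.6 to 527 ± 9.39 CPM, with a log2 fold change of 0.26 (adjusted p = 0.000743). *Gpt*, an alanine aminotransferase gene, fell to 76.9% of WT (adjusted p = 0.0445).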
